A study of Homo sapiens with 4 samples.

Results

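The genes described are the zinc finger genes of the long arm of chromosome 19, taken as every gene whose symbol is ZNF followed by a number and at most 1 letter and whose RefSeq start lies at 26 Mb or more on chromosome 19. An array probe set had to name that gene alone, and where 2 probe sets did so, for 2 genes, the one with the higher mean over the 4 arrays was used. This gave 155 genes of the 17958 tested, 149 of them protein coding and 6 annotated as transcribed pseudogenes. RefSeq lists 170 symbols of this form in the region, and the other 15 had no probe set of their own. HCT116, an established human colorectal carcinoma line, was given 5-aza-2'-deoxycytidine (5aza, or decitabine) at 1 µM from 24 hours after seeding and again 48 hours later, or vehicle, and RNA of both was taken at 72 hours. There were 2 treated and 2 vehicle samples, 1 array each. The vehicle is not named, and no label tells whether samples 1 and 2 were separate cultures. The spread behind each p-value is that between these samples and may therefore be technical only. The labels give no engineered change for either group.

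Most of these genes encode transcription factors with a row of C2H2 zinc fingers that bind DNA, and many also carry a KRAB domain. The KRAB domain binds TRIM28 (KAP1), which brings the histone methyltransferase SETDB1 and HP1 proteins to the bound site, so that the site, often a transposable element, is silenced. The family grew by repeated local duplication, and its members therefore sit side by side in clusters on chromosome 19. 5aza is built into replicating DNA, traps DNA methyltransferases and lowers cytosine methylation, and promoters of several zinc finger genes in this region are known to be methylated in tumours.

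The promoters of the 3 largest rises with an entry in the RefSeq table, and of the 3 genes that fell, are shown because they carry the CG dinucleotides that can be methylated, and those of the genes that rose and of the genes that fell can be compared. Each is 300 bases, from 250 before to 50 after the RefSeq start (GRCh38.p14), 5′ to 3′ on the gene's strand, with CG in capitals. ZNF528 (chr19:52397599-52397898, plus strand), ZNF549 (chr19:57527106-57527405, plus strand) and ZNF841 (chr19:52095716-52096015, minus strand) rose.
ZNF528: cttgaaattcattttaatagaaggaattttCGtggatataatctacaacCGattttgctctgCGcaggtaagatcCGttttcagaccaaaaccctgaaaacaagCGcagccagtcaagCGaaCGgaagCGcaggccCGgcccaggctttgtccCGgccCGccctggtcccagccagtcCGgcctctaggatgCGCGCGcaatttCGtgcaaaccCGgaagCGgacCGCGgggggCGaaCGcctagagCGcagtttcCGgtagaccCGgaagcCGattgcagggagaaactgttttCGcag
ZNF549: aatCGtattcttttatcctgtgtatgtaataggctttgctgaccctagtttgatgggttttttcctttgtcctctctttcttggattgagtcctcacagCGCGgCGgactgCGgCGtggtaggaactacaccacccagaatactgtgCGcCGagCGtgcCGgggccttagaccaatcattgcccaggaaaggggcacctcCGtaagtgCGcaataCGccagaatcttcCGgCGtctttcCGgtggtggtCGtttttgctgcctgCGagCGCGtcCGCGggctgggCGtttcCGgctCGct
ZNF841: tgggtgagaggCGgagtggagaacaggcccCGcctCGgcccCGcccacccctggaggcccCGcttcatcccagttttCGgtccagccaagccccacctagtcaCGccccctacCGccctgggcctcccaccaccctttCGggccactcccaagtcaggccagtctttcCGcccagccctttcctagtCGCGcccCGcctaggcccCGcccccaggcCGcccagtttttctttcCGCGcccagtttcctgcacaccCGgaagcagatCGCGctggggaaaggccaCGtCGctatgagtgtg
ZNF573 (chr19:37779537-37779836, minus strand), ZNF507 (chr19:32345360-32345659, plus strand) and ZNF8 (chr19:58278705-58279004, plus strand) fell.
ZNF573: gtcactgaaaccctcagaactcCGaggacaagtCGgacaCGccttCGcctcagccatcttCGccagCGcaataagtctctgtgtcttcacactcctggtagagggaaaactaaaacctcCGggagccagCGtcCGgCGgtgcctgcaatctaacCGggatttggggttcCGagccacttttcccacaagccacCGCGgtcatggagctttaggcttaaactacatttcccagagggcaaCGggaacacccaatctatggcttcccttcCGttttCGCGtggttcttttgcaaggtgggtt
ZNF507: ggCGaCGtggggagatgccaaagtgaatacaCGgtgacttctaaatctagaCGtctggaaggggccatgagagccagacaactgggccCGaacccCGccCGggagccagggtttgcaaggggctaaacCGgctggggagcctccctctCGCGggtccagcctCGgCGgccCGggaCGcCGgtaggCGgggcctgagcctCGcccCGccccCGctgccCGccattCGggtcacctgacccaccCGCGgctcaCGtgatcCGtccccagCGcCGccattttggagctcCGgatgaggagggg
ZNF8: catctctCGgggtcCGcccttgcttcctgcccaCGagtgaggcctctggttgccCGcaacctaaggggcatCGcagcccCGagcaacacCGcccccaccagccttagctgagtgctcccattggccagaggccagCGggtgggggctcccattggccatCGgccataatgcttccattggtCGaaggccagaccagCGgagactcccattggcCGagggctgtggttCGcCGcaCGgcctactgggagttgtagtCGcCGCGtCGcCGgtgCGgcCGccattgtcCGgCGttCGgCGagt
The windows hold 27, 25 and 22 CG in the genes that rose and 18, 28 and 26 in the genes that fell. In these few promoters the counts overlapped between rises and falls.

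Treatment was accompanied by rises of many of these genes and by almost no falls. Values are log2 levels from the authors' RMA processing, so a difference of 1 is a doubling, and a gene is said to rise or fall where limma's adjusted p (Benjamini-Hochberg, 17958 genes) was under 0.05. Of the 155 genes 58 rose (37.4%), 3 fell (1.94%) and 94 did not pass the test. Of all genes 12.4% rose and 15.6% fell. At least 2-fold rises numbered 38, with 5.05% of all genes passing that rule, and at least 4-fold rises 14, with 1.93% of all genes passing. None of the 3 falls reached 2-fold, a rule that 2.62% of all genes passed. In bulk RNA, fewer cells expressing a gene and less RNA of it per cell cannot be told apart. The median log2 fold change was 0.26 over the 155 genes and -0.07 over all genes, and 118 of the 155 lay above 0.

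The groups of arrays were also apart without a test. Both treated arrays lay above both vehicle arrays for 90 of the 155 genes (26.3% of all genes) and below both for 16 (39.5% of all genes). The median of the 155 levels was 6.11 on vehicle array 1 and 6.10 on vehicle array 2, against 6.68 on treated array 1 and 6.41 on treated array 2. The treated arrays were not alike: array 1 was above array 2 for 108 of the 155 genes (69.7%) and for 46 of the 58 that rose, and for 51.1% of all genes. Without treated array 1 there were 54 rises, 53 of them among the 58, and without treated array 2 there were 68, with 56 among the 58. Without vehicle array 1 there were 46 and without vehicle array 2 there were 45, all among the 58. The 16 rises lost in at least 1 of these 4 fits were of ZNF135, ZNF155, ZNF211, ZNF222, ZNF331, ZNF404, ZNF419, ZNF480, ZNF527, ZNF567, ZNF578, ZNF582, ZNF600, ZNF649, ZNF761 and ZNF816.

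**Figure D1:**
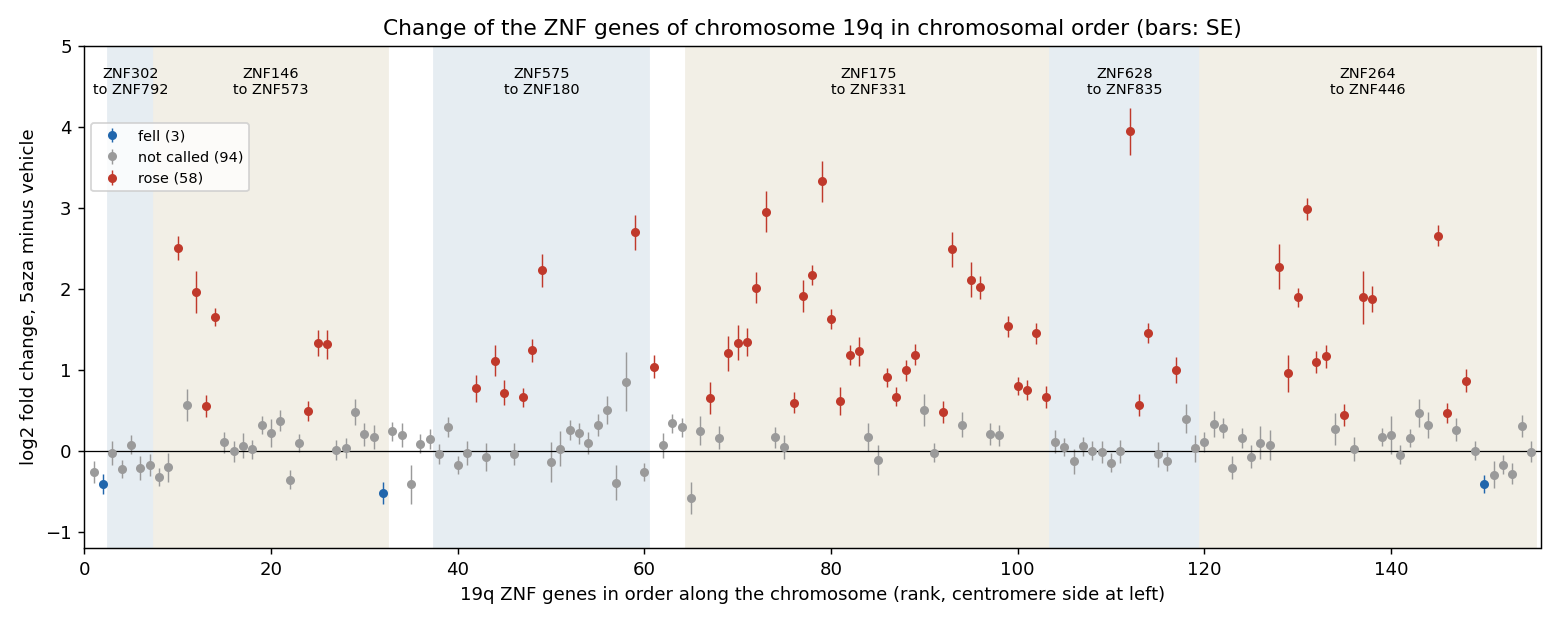
Log2 fold change of each of the 155 genes (5aza minus vehicle, 2 arrays each; bars are SE), in order along the chromosome, with the 6 clusters shaded and calls coloured. Rises reach 3.95 and are densest in the cluster from ZNF175 to ZNF331, where 27 of 39 genes rose, while no gene rose in the cluster from ZNF302 to ZNF792.

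The 12 largest rises ran from 4.33-fold to 15.4-fold, and all started from low levels. On the 4 arrays their vehicle values lay between 2.96 and 4.96 and their treated values between 5.29 and 7.60. The rule that picked them required groups that did not overlap, which all 58 rises met. SE was between 0.12 and 0.29 and adjusted p between 2.04e-05 and 0.00157 in limma's test. The largest rise was of ZNF542P, a transcribed pseudogene, which read 3.59 and 2.96 in vehicle and 7.60 and 6.85 in treated cells, a 15.4-fold rise (log2 fold change 3.95, SE 0.29, adjusted p = 0.000168). ZNF528 read 3.37 and 3.46 in vehicle and 7.15 and 6.33 in treated cells, 10.04-fold higher (SE 0.25). ZNF549 read 3.64 and 3.38, then 6.54 and 6.46, a 7.93-fold rise with the smallest adjusted p among the 155 genes (2.04e-05, limma). ZNF841 went from 2.99 and 3.01 to 6.37 and 5.53. For these 4 genes the distance between the groups was larger than any distance within a group, and the treated pair was closest for ZNF549.

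ZNF229 read 3.74 and 3.31 in vehicle and 6.50 and 5.95 in treated cells, 6.50-fold higher. ZNF256 read 4.13 and 4.26, then 6.95 and 6.75, and rose 6.31-fold. ZNF529 read 3.52 and 3.70, then 6.27 and 5.96, and rose 5.68-fold. None of these genes overlapped between the groups, which the rule for picking them required. The pseudogene ZNF702P went from 4.30 and 4.96 to 7.19 and 7.05, and its vehicle arrays were farther apart than its treated arrays. ZNF772 went from 3.65 and 3.60 to 6.37 and 5.43, and ZNF284 from 4.47 and 4.33 to 6.94 and 6.31. In both the treated arrays were farther apart than the vehicle arrays, array 1 being the higher. ZNF880 (4.91 and 4.89, then 6.98 and 7.16) and ZNF415 (3.33 and 3.63, then 5.91 and 5.29) completed the 12, at 4.51-fold and 4.33-fold.

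**Figure D2:**
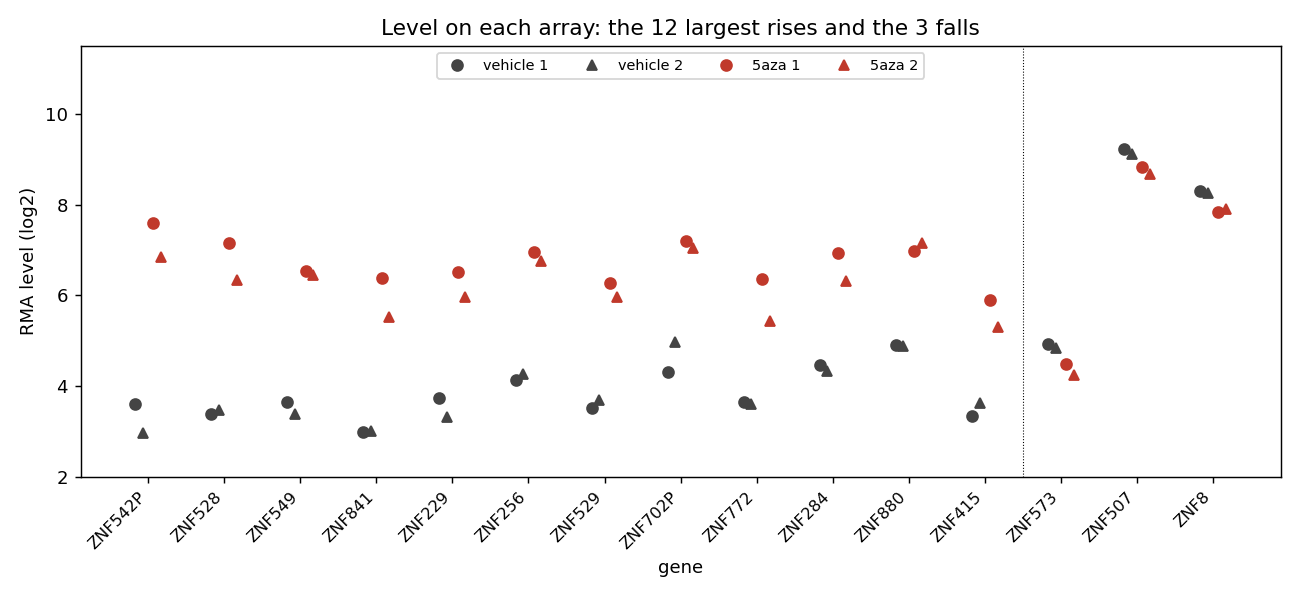
RMA level (log2) on each array for the 12 largest rises and, right of the dotted line, the 3 falls; grey is vehicle, red is 5aza, circles are replicate 1 and triangles replicate 2. Treated points of the 12 rises lie between 5.29 and 7.60, above vehicle points between 2.96 and 4.96, whereas the falls are shifts of 0.52 or less.

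The 3 falls were small. ZNF573 read 4.92 and 4.84 in vehicle and 4.49 and 4.23 in treated cells, 1.43-fold lower (log2 fold change -0.52, SE 0.13, limma adjusted p = 0.0287). ZNF507 read 9.22 and 9.11, then 8.83 and 8.68 (log2 fold change -0.41, adjusted p = 0.0461 in limma's test), and ZNF8 read 8.30 and 8.26, then 7.85 and 7.90 (log2 fold change -0.41, adjusted p = 0.0366 in limma's test). For none of them did the 2 groups overlap, which the rule for picking them required. None was called without vehicle replicate 1 or without vehicle replicate 2 (0 falls in each fit), 1 fall was called without treated replicate 2 and 7 without treated replicate 1. With the arrays centred on housekeeping genes, or quantile normalized again, ZNF507 and ZNF8 were not called, and ZNF573 was the fall left.

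Neighbouring genes whose starts lay within 500 kb of each other were placed in 1 cluster. This gave 6 clusters of 5 or more members, holding 144 of the 155 genes and 57 of the 58 rises; each is named by its first and last member, from the centromere outwards. The cluster from ZNF175 to ZNF331 held the most rises, 27 of its 39 genes (69.2%) with no falls, and a median log2 fold change of 0.80. The cluster from ZNF264 to ZNF446 had 12 rises and 1 fall among 36 genes (median 0.27), the cluster from ZNF575 to ZNF180 had 7 rises among 23 (median 0.26), and the cluster from ZNF146 to ZNF573 had 7 rises and 1 fall among 25 (median 0.20). In the cluster from ZNF628 to ZNF835, 4 of 16 genes rose (median 0.04), and in that from ZNF302 to ZNF792 none of 5 did (median -0.17). The shares were not tested against each other, and 12.4% of all genes rose.

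In the cluster from ZNF175 to ZNF331 the median level of the 39 genes was 5.83 and 6.07 on the vehicle arrays and 7.15 and 7.04 on the treated arrays. Runs of adjacent members rose without a member between them that did not. Here and below, adjacent or consecutive genes are next to each other among the measured members only. Genes of other names and ZNF genes without a probe set of their own can lie between them. From ZNF350, whose protein is a BRCA1-binding repressor, the next genes ZNF615, ZNF614, ZNF432 and ZNF841 all rose, by 2.30-fold, 2.53-fold, 2.53-fold, 4.05-fold and 7.74-fold in that order. After ZNF616 and ZNF766, which did not pass the test (log2 fold changes 0.17 and 0.05), 8 consecutive genes rose: ZNF480 (1.51-fold), ZNF610 (3.77-fold), ZNF880 (4.51-fold), ZNF528 (10.04-fold), ZNF534 (3.10-fold), ZNF578 (1.53-fold), ZNF808 (2.27-fold) and ZNF701 (2.35-fold). ZNF808, a KRAB protein needed for human pancreas development, was already at 8.32 and 8.38 in vehicle cells and reached 9.63 and 9.43, so rises were not limited to genes with low starting values. A further run of 4 comprised ZNF611 (1.88-fold), ZNF600 (1.59-fold), ZNF28 (2.00-fold) and ZNF468 (2.28-fold). The last run, at the outer end, held ZNF677 (2.90-fold), ZNF845 (1.74-fold), ZNF761 (1.69-fold), ZNF813 (2.74-fold) and ZNF331 (1.59-fold). The other rises of the cluster were of ZNF649 (1.57-fold), ZNF816 (1.40-fold), ZNF702P, ZNF415 and ZNF347 (4.05-fold, SE 0.14).

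The 12 genes of this cluster that did not pass the test had log2 fold changes between -0.58 and 0.50. The lowest was ZNF175, a repressor studied for its effect on retroviral promoters, at 8.33 and 8.02 in vehicle and 7.86 and 7.33 in treated cells (adjusted p = 0.0730, limma). It is the first gene of the cluster and was called as lower only without treated replicate 1 or with a replicate block. Among the 12 were 3 pseudogenes, ZNF137P, ZNF321P and ZNF818P, with log2 fold changes of 0.17, -0.02 and 0.19. The 15 genes inside the same stretch that are not named ZNF and a number, among them the formyl peptide receptor genes FPR1 to FPR3, included 1 fall, of SPACA6 (log2 fold change -0.42), and no rise in limma's test. Their log2 fold changes lay between -0.55 and 0.12.

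The cluster from ZNF264 to ZNF446 at the end of the chromosome arm changed in its middle. Its first 8 genes, from ZNF264 to ZNF749, had log2 fold changes between -0.21 and 0.33 and none rose. The next 6 all rose, ZNF772 by 4.84-fold, ZNF419 by 1.94-fold, ZNF773 by 3.72-fold (5.12 and 5.13, then 7.07 and 6.98), ZNF549 by 7.93-fold, ZNF550 by 2.15-fold and ZNF416 by 2.25-fold. After ZNF530 (log2 fold change 0.27, not called) came ZNF211 (1.36-fold), and further on ZNF154 (3.72-fold), ZNF671 (3.68-fold), ZNF256 (6.31-fold), ZNF135 (1.39-fold) and ZNF274 (1.83-fold). ZNF274 is known for binding the last exons of other zinc finger genes and for recruiting SETDB1 there; it read 7.02 and 7.23 in vehicle and 7.89 and 8.10 in treated cells, without overlap. The last 7 genes, from ZNF544 to ZNF446, had no rise and included the fall of ZNF8. Of 8 other genes inside this cluster 5 rose, the largest being ZIK1, itself a KRAB zinc finger gene, which was 15.96-fold higher, followed by ZSCAN4 (9.21-fold) and AURKC (5.78-fold).

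In the cluster from ZNF628 to ZNF835 the rises lay in the outer part. It is divided here at ZNF542P, its first gene that rose, so the boundary was taken from these same values. The first 8 genes of the cluster, from ZNF628 to ZNF444, did not pass the test, with log2 fold changes between -0.15 and 0.12. ZNF628, a regulator of sperm formation in mice, was at 6.61 and 6.69 in vehicle and 6.93 and 6.60 in treated cells, and ZNF444, a factor that binds an endothelial scavenger receptor promoter, at 6.26 and 6.10, then 6.04 and 6.32. Both genes overlapped between the groups. Farther out, from ZNF542P to ZNF835, 4 of 8 genes rose: ZNF542P, ZNF582 (1.48-fold), ZNF583 (2.74-fold) and ZNF470 (2.00-fold). ZNF667, ZNF471, ZNF71 and ZNF835 did not pass the test, with log2 fold changes of -0.04, -0.13, 0.40 and 0.03. Of 19 other genes inside this cluster 6 rose and 1 fell, the largest rises being of ZSCAN5B (36.7-fold) and RFPL4A (36.3-fold).

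In the cluster from ZNF575 to ZNF180, rises came from ZNF404 (1.71-fold) and from 5 of the 6 genes ZNF221 (2.17-fold), ZNF155 (1.65-fold), ZNF230 (not called, log2 fold change -0.04), ZNF222 (1.58-fold), ZNF223 (2.37-fold) and ZNF284 (4.69-fold), which follow each other. The 9 genes after ZNF284, from ZNF224 to ZNF285, did not pass the test. ZNF224, a repressor of the aldolase A gene, read 6.23 and 6.33 in vehicle and 6.56 and 5.73 in treated cells, so that its treated arrays lay on either side of the vehicle arrays. ZNF285 had the largest change among genes not called (log2 fold change 0.86, SE 0.36), with treated arrays of 5.43 and 4.19. The rise of ZNF229 was next to it, and the last gene, ZNF180, did not pass (log2 fold change -0.26). Of 9 other genes inside this cluster 1 rose and 3 fell.

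In the cluster from ZNF146 to ZNF573 the rises were of ZNF529, ZNF461 (3.90-fold), ZNF567 (1.47-fold) and ZNF850 (3.14-fold, 6.63 and 6.64 in vehicle, 8.31 and 8.27 in treated cells), and farther out of ZNF527 (1.41-fold), ZNF569 (2.52-fold) and ZNF570 (2.49-fold). ZNF569 is described as a repressor of MAPK signalling. Between these groups, 9 genes in a row from ZNF790 to ZNF875 had no rise. Among them were ZNF568, related to a mouse repressor of a placental Igf2 transcript, at 2.56 and 2.64 in vehicle and 2.68 and 2.56 in treated cells, and ZNF420, a KRAB inhibitor of p53, at 3.32 and 3.40, then 3.65 and 3.71 (adjusted p = 0.0829, limma). ZNF146, a protein made almost only of zinc fingers, was at 10.65 and 10.68 in vehicle and 10.37 and 10.32 in treated cells (adjusted p = 0.0770, limma). Of 3 other genes inside this cluster ZFP82 was 6.41-fold higher and ZFP14 2.76-fold lower. Without treated replicate 2 this cluster had 11 rises. Of the 11 genes outside clusters, ZNF296, a pluripotency-associated factor, rose 2.06-fold (8.28 and 8.32, then 9.17 and 9.51), ZNF507 fell and 9 did not pass.

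Over the 138 pairs of adjacent genes within clusters, both rose in 36 pairs, 1 of 2 rose in 41 and neither rose in 61. Pearson's correlation of the log2 fold changes of adjacent genes was 0.27 and Spearman's rho 0.36 over these pairs, which share arrays and, between neighbours, a gene. The pairs were pooled over clusters with medians from -0.17 to 0.80. The pair counts and correlations therefore also hold the differences between clusters, and likeness of neighbours within a cluster was not tested. Adjacent genes in these clusters are often recent duplicates, and hybridization of one gene's transcript to another's probes was not assessed. Values of close relatives such as ZNF417 and ZNF587, ZNF585A and ZNF585B, ZNF780A and ZNF780B or ZNF816 and ZNF321P are uncertain for that reason. Another 17 probe sets for symbols of the region named several genes or were second probe sets. In a limma fit over all 33297 probe sets, in which 6.02% rose and 6.36% fell, 7 of the 17 rose and 0 fell. Most of these 7 also name members that rose.

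Genes of the list reported as promoter-methylated in tumours are given whole. Of its 9 genes ZNF132 was not measured alone. Among the other 8, limma's test called 5 as higher and 0 as lower, with a median log2 fold change of 0.62. Of all genes 12.4% rose, and of the 155 genes 37.4%. ZNF154, a methylation marker of many tumour types, read 3.84 and 4.69 in vehicle and 5.78 and 6.54 in treated cells, 3.72-fold higher, with the largest SE among the rises (0.33). ZNF671 read 4.75 and 4.65, then 6.78 and 6.38. ZNF677 read 2.88 and 2.79, then 4.25 and 4.50. These 3 genes rose by 2.90-fold or more. ZNF331, a gene silenced by methylation in gastric and colorectal cancer, rose from 4.58 and 4.48 to 5.07 and 5.32, and ZNF582, a cervical cancer marker, from 3.72 and 3.64 to 4.13 and 4.37; neither was called without vehicle replicate 1 (adjusted p 0.0542 and 0.0911, limma) or without vehicle replicate 2. ZNF382 (3.33 and 3.39, then 4.22 and 3.63) had a limma adjusted p of 0.0716 and was called without treated replicate 2, with a replicate block and after repeated quantile normalization. ZNF471 (3.19 and 3.09, then 3.08 and 2.94) and ZNF667 (3.61 and 3.23, then 3.37 and 3.39) had no such shift. The level of this list, as its mean on each array, was 3.74 and 3.75 in vehicle and between 4.58 and 4.63 in treated cells.

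The second list, genes with a described role, held 19 measured genes of 21. ZNF274, ZNF569, ZNF649 and ZNF808 rose and ZNF507 fell, beside 12.4% and 15.6% of all genes, and the other 14 had log2 fold changes between -0.58 and 0.47. ZNF649, a repressor of growth factor signalling, lost its call when either vehicle array or treated replicate 1 was left out. ZNF304 read 7.43 and 7.65 in vehicle and 7.68 and 7.73 in treated cells. ZNF417 and ZNF587, close relatives that bind endogenous retroviruses, had log2 fold changes of 0.47 and 0.16, and limma's adjusted p was 0.0885 and 0.336. The probe sets of ZNF587 differed. Its second probe set had a log2 fold change of 0.65 and was not called in the fit over all probe sets. The average of its probe sets had a log2 fold change of 0.41 (limma adjusted p = 0.0584). ZNF383 had one of -0.35, ZNF302 of -0.02, ZNF536, a neural factor, of -0.26 and ZNF541, a germ cell chromatin factor, of 0.07.

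**Figure D3:**
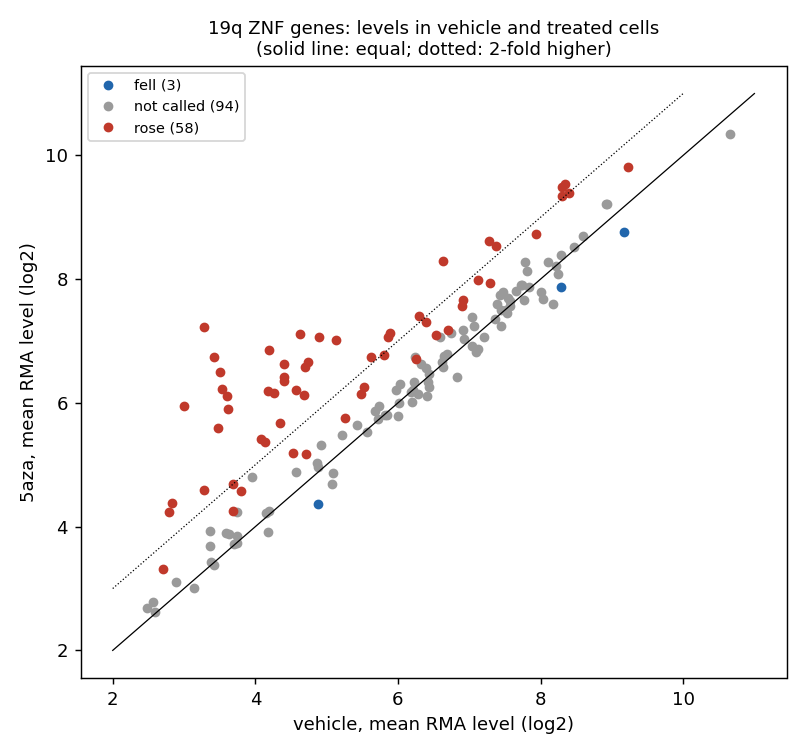
Mean RMA level (log2, 2 arrays) in vehicle (x) and treated cells (y) of the 155 genes, coloured by call; the solid line marks equal levels and the dotted line a 2-fold higher level. The 12 largest rises start below a vehicle level of 5, while the rises of ZNF480, ZNF808, ZNF28, ZNF468 and ZNF296 lie at vehicle levels above 8.

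Because probe sets with low and high levels can differ in how often they pass the test, genes were also sorted by their mean level over the 4 arrays. Levels of different probe sets are not amounts that can be set against each other, so this sorts signals only. Of members with a mean level under 4, 5 of 20 rose, against 2.86% of all genes in that range. Between 4 and 5 it was 11 of 21 against 15.8%, between 5 and 6 it was 19 of 29 against 25.5%, between 6 and 7 it was 10 of 36 against 20.8%, and at 7 and above 13 of 49 against 9.67%. The mean holds the treated arrays, so a large rise moves a gene into a higher range (ZNF542P, ZNF528 and ZNF256 lie between 5 and 6 for that reason), and the shape over ranges is partly set by the rises. All genes were sorted in the same way. The log2 fold change correlated with the mean level at r = -0.21 and rho = -0.21 over the 155 genes, which share arrays. RMA usually compresses folds near background, and the table has no detection calls, so which low vehicle values lie above background was not determined.

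**Figure D4:**
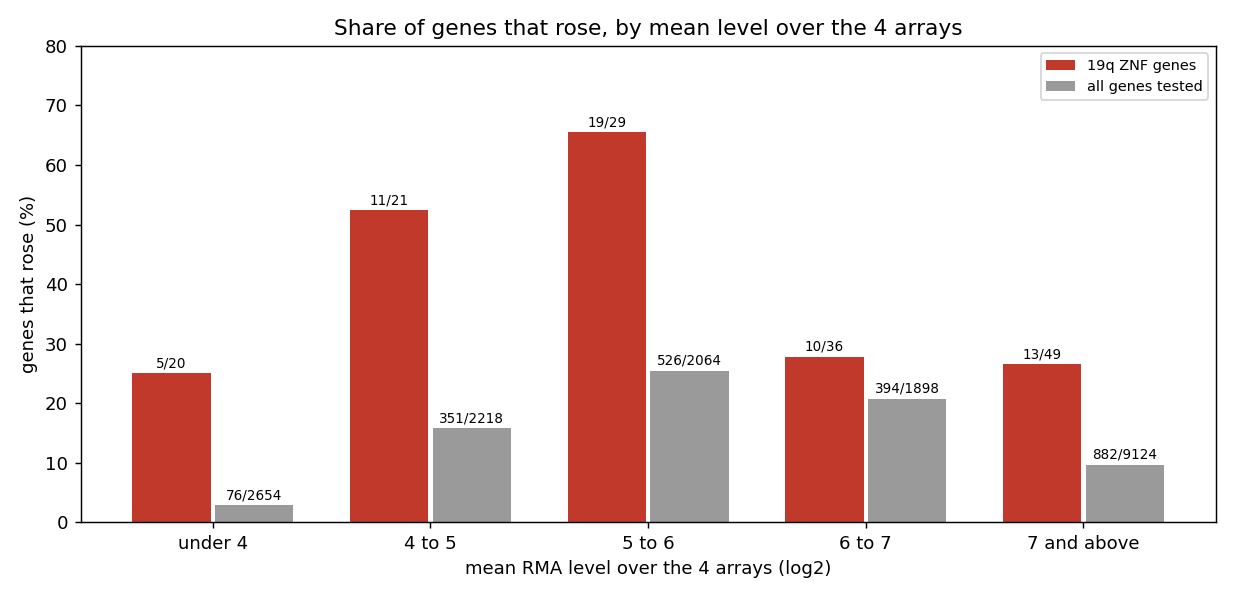
Percent of genes that rose (limma adjusted p under 0.05), by mean RMA level over the 4 arrays, for the 155 genes (red) and all 17958 genes (grey); bar labels give the rises and the genes in each range. The ranges use a mean that includes the treated arrays, so the rises themselves shift genes to the right in both sets of bars; between 5 and 6, 19 of 29 genes rose.

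The promoters were compared by their count of CG, which reads the same on both strands, over the 130 genes with an entry in the RefSeq table, using the entry farthest upstream where there were several. At least 20 CG occurred in 87 of the 130 windows (66.9%) and in 41.0% of the 27305 genes of the table. That table holds many genes not tested here. Over the 13861 tested genes with an entry the median count was 23, against 22.5 over the 130 genes. The median count was 23 in genes that rose and 22 in genes that did not pass the test. With under 15 CG 5 of 16 genes rose, with 15 to 19 it was 9 of 27, with 20 to 24 it was 13 of 36, with 25 to 29 it was 15 of 31 and with 30 or more 5 of 20. In the same ranges and order, 12.73%, 13.19%, 12.22%, 11.94% and 11.54% of all tested genes with an entry rose. Over the 130 genes the correlation of the count with the log2 fold change was r = -0.08 and rho = -0.12. ZNF404, with 2 CG, and ZNF773, with 30, both rose. The letters CCGGAAG, the core of sites bound by ETS factors, were looked for on both strands after the printed promoters had been seen. They were in 60 of the 130 windows (46.2%). Of genes that rose, 27 of 47 windows held them, and of genes not called, 33 of 80. Over the 27305 genes of the table, many of them not tested here, the share was 10.6%. The share over the tested genes was not computed. The motif holds 1 CG and so overlaps with the CG count.

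**Figure D5:**
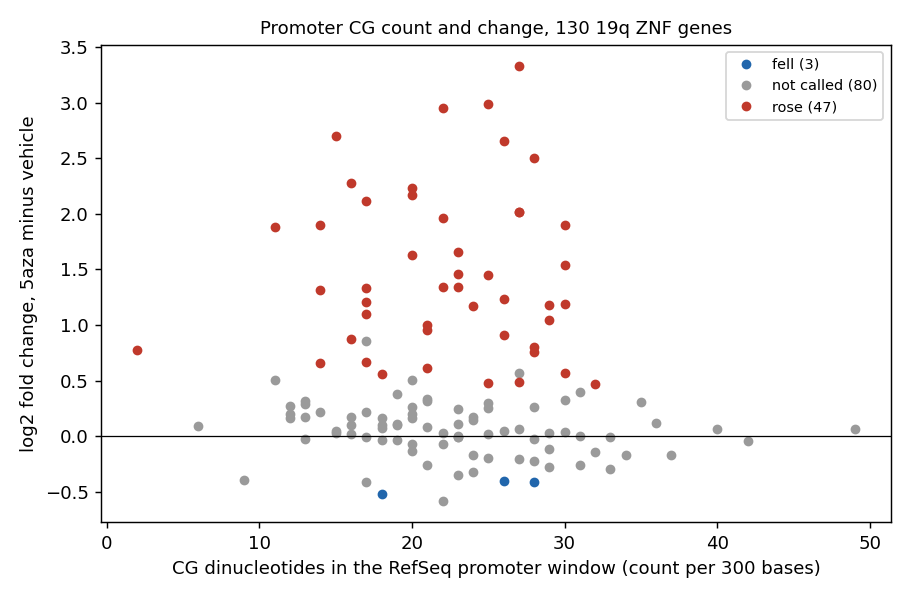
CG dinucleotides in the 300-base RefSeq promoter window (x) and log2 fold change (y, 5aza minus vehicle) of 130 genes, coloured by call. Rises occur from 2 to 32 CG, and genes with similar counts differ widely in their change.

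Set beside related groups, 19 of the 75 ZNF genes on chromosome 19 below 26 Mb rose and 2 fell (median log2 fold change 0.10), 41 of the 246 off chromosome 19 rose and 47 fell (median -0.04), and of 552 other genes at 26 Mb or more on chromosome 19, 91 rose and 47 fell (median 0.00). These shares were not tested against each other.

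Partners through which KRAB zinc finger proteins silence were taken as a list of 30 genes, of which 29 were tested. The list had 2 rises and 4 falls, near or below the 12.4% and 15.6% of all genes, and the other 23 genes had log2 fold changes between -0.52 and 0.27. TRIM28, the shared corepressor, read 11.53 and 11.63 in vehicle and 11.49 and 11.75 in treated cells (log2 fold change 0.04, SE 0.14). SUV39H1, an H3K9 methyltransferase, fell from 8.83 and 8.72 to 7.62 and 7.48, 2.34-fold lower (adjusted p = 0.000653, limma). SETDB1, the methyltransferase recruited by TRIM28, fell from 9.13 and 9.02 to 8.67 and 8.58, and ATRX, a heterochromatin remodeller, from 7.97 and 7.95 to 7.63 and 7.22. UHRF1 fell as well (log2 fold change -0.58). Only SUV39H1 of these 4 was called without vehicle replicate 1 or without vehicle replicate 2, and UHRF1 and ATRX were not called with probe sets averaged per gene. MORC2, an effector of HUSH silencing, rose from 9.07 and 9.08 to 10.10 and 10.04, 1.99-fold. The other rise of the list was of ZFP57, which is itself a KRAB zinc finger protein, one that protects imprinted methylation. It read 3.58 and 4.08 in vehicle and 9.38 and 9.36 in treated cells, a 46.5-fold rise (SE 0.18). DNMT1, the enzyme that 5aza traps, was at 10.45 and 10.59, then 10.33 and 10.48, and did not pass the test.

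The cells carried their epithelial markers: KRT8 was at 13.01, KRT18 at 12.82, EPCAM at 11.81 and CDH1 at 10.23 in vehicle (means of 2 arrays). Of the intestinal markers, CDX2 was at 7.92, and CDX1, VIL1, CEACAM5 and CDH17 were at 5.71, 4.31, 4.17 and 3.77. Of 11 tested epithelial markers KRT18 and CDX2 rose, by 1.36-fold and 1.63-fold, and EPCAM and CLDN4 were 1.64-fold and 1.89-fold lower. Of 22 tested markers of fibroblasts, endothelium, leukocytes, neurons and germ cells, 8 rose and 2 fell, against 12.4% and 15.6% of all genes. The mean of that list was between 4.72 and 4.83 on vehicle and between 5.23 and 5.25 on treated arrays. The rises were of COL1A1, PECAM1, CD3D, CD14, CD68, RBFOX3, SYP and DDX4, and the falls of KDR and SNAP25. RMA levels do not reach 0 on these arrays, and the lowest vehicle means in the list were those of LUM and DCN, both 2.80, and of PTPRC, 3.02. The highest were those of CD68, 8.69 (10.22 in treated cells), and SNAP25, 6.72. The part of these markers in the changes above was not tested. Pearson's r over probe sets was 0.995 for the vehicle pair, 0.992 for the treated pair and 0.966 to 0.971 across groups.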

How the data were processed

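RNA of 2 vehicle and 2 treated samples of HCT116 cells was hybridized, 1 sample an array. The deposited values are log2 levels, 1 per probe set and array (33297 probe sets), which the authors computed with RMA in Affymetrix Expression Console, per the submitters' processing notes. RMA subtracts background, quantile normalizes the arrays and combines probes. Software versions, genome build and probe set definition: not given in the sources used here. Array medians lay between 5.72 and 5.84. Quantile normalization hides a change of total RNA per cell.

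Of these probe sets 19181 named 1 gene in the platform annotation, giving 17958 genes. Treated and vehicle arrays entered limma 3.58.1 under R 4.3.3 (lmFit, eBayes, no covariate, no filter), two-sided, with Benjamini-Hochberg adjustment over all genes. An exact permutation test of 2 arrays against 2 cannot go below 0.333, so calls rest on limma's pooled variance. The number of arrays limits the precision (median SE 0.13). On simulated arrays over the 17958 genes for this comparison, 200 genes were changed in each of 10 runs. Of the genes given a log2 change of 0.5, 2.4% were called, 75.4% at a change of 1 and 99.8% at 2, with 5.74% false calls. In the data 12.4% of all genes rose and 15.6% fell, a larger share than was simulated. The adjusted p depends on that share, so these rates need not hold for the calls reported here.

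Members, lists and tests were chosen with earlier results of these data known. Genes named by rule were the 12 highest and 12 lowest changes among called members whose arrays did not overlap (only 3 fell), the 2 members with the smallest p in each cluster, both fixed lists, called partners of KRAB proteins, and DNMT1; the remaining names were chosen after their values were seen, so that all calls are listed. Symbols, chromosome and order came from RefSeq (GRCh38.p14), whose coordinates are printed only for promoter sequences. Alternatives were other normalizations, a filter on dim genes, averaged probe sets, another variance model, a replicate block, a stricter threshold, other cluster gaps and each array left out.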

Additional observations from a re-analysis of the deposited data

Results flagged for a closer look

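Probe sets that name several genes, and second probe sets of members, are outside the 155 values compared above. There were 17 for symbols of this region, and in a limma fit over all 33297 probe sets (6.02% rose and 6.36% fell, adjusted p under 0.05) 7 of them rose and 0 fell. The 7 are given because they passed that test with higher signal in treated cells, outside the main measurement. Those that rose name ZNF160 and TYROBP (log2 fold change 1.42), ZNF606 and its antisense gene (1.30), ZNF211 and ZNF134 (1.08), ZNF841 and ZNF836 (0.71), 5 genes of the cluster from ZNF175 to ZNF331 including ZNF525 and ZNF765 (0.71), ZNF761, ZNF813 and ZNF765 (0.60), and ZNF525, ZNF845 and ZNF765 (0.60). Which of the named genes gave the signal cannot be told apart. Most of the 7 also name members that rose above, such as ZNF211, ZNF841, ZNF813 and ZNF845, and are not independent of those rises. ZNF134, ZNF606, ZNF836, ZNF525 and ZNF765 had no probe set of their own.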

How the results depend on the processing

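The 58 rises numbered 45 to 68 with each array left out in turn, and 42 of them were called in all 4 such fits. A fit that leaves 1 array in a group assumes that it varies like the other group. Other settings called 55 to 58 of the same genes, apart from those that follow. An adjusted p under 0.01 gave 45 rises and 0 falls. A 2-fold minimum, added after the data were seen, gave 38 rises and 0 falls. Removal of the dimmest 33.3% of genes left 100 members with 32 rises, 30 of them among the 58. The clusters starting at ZNF146, ZNF575, ZNF175 and ZNF628 then had 3, 3, 16 and 0 rises. That filter used the mean over the 4 arrays, so high treated values could keep a gene in. The falls, 3 as reported, numbered 0 to 7 with each array left out, and 1 with housekeeping centring and with repeated quantile normalization. Rises in the cluster starting at ZNF146 ran from 5 to 11 with each array left out. Falls among KRAB partners ran from 1 to 6 with each array left out, and were 1 at the stricter threshold and 2 after repeated quantile normalization. The median log2 fold change of the members stayed between 0.17 and 0.36. Same-numbered arrays share only a number (correlation of deviations 0.27 over genes, 2 pairs); with the replicate number as a block there were 66 rises, all 58 among them, and 6 falls. Gaps of 250 and 1000 kb gave 7 and 5 clusters. Signal over background is unknown here.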
